A study of Caenorhabditis elegans with 12 samples.

Results

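The glutathione S-transferase family of *C. elegans* was taken as every gene whose WBcel235 symbol starts with *gst-*, *gsto-* or *gstk-*, which gave 49 genes of 22059 in the files: 44 *gst*, 3 *gsto* (omega class) and 2 *gstk* (kappa class). RNA-seq was performed on whole adults of 2 genotypes at 2 ages, with 3 biological replicates in each of 4 groups and 12 libraries in all. The groups were sixth-day *fog-2(lf)*, first-day *fog-2(lf)*, sixth-day wild type and first-day wild type. The *fog-2(lf)* animals were strain JK574, which carries the q71 allele and whose XX adults make no sperm of their own, and wild type was the laboratory strain N2. All 4 groups were synchronized, grown at one temperature on *E. coli* OP50 and received no treatment, so that genotype and day of adulthood are the only differences the labels give. RNA came from pools of whole animals, in which fewer cells of a type and less RNA per cell cannot be told apart.

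Glutathione S-transferases join the tripeptide glutathione to reactive, electron-poor compounds, which makes these soluble and ready for export from the cell. Many also reduce lipid peroxides, and the family belongs to the second phase of detoxification together with the UDP-glucuronosyltransferases. In *C. elegans* several members are switched on in the intestine and hypodermis by the transcription factor SKN-1 under oxidative stress, and a *gst-4* reporter is widely used to read SKN-1 activity.

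The libraries held 21162593 to 38775999 estimated counts. Levels of *fog-2* itself were 3.195 to 4.86 CPM (counts per 1000000 counts, with library sizes scaled by TMM, as for all CPM values here) in the *fog-2(lf)* libraries, against 44.5 to 58.5 CPM in the wild-type libraries. Replicate 2 of first-day wild type stood apart: the 9 sperm markers summed to 41.4 CPM there and to between 2.303 and 6.396 CPM in the other 11 libraries, and its 6 hypodermis markers summed to 1382 CPM, against 521 and 360 CPM in replicates 1 and 3. Whether this library differed from the other 2 in stage was not tested. Among first-day *fog-2(lf)* libraries, replicate 2 had 628 CPM of hypodermis markers and replicates 1 and 3 had 1398 and 1435 CPM. Counts of called members without a library are given where leaving it out moved them by more than 1.5 times.

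Of the 49 members, 26 lie on chromosome II, 9 on V, 5 on IV, 4 on III, 3 on X and 2 on I. Their longest coding sequences ran from 522 to 927 bp with a median of 627 bp, in 2 to 6 exons, and 43 of the 49 had a single isoform in the files. When members within 20000 bp of each other were joined, 25 fell into 4 groups and 24 stood alone. On chromosome II, 9 members (*gst-20*, *gst-24*, *gst-15*, *gst-14*, *gst-12*, *gst-16*, *gst-19*, *gst-17* and *gst-18*, in this order) all lie on the minus strand between 13608154 and 13630887, with 0 other protein-coding genes among them. A further 9 (*gst-26*, *gst-27*, *gst-28*, *gst-29*, *gst-39*, *gst-31*, *gst-32*, *gst-34* and *gst-35*) lie on the minus strand of the same chromosome between 15163817 and 15185389, with 1 other protein-coding gene among them. The other groups were *gst-6*, *gst-7*, *gst-8* and *gst-9* on chromosome II (4879891 to 4893573) and *gst-3*, *gst-2* and *gst-4* on chromosome IV (10139380 to 10143099), where *gst-2* and *gst-4* start 164 bp apart and point away from each other. Reads shared by similar neighbours were divided among them by the quantification, and *gst-17* and *gst-18* overlap by 992 bp on one strand, so single values of close neighbours are less certain than those of members that stand alone.

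Levels within the family were very unequal. In TPM, the deposited measure of transcript abundance, which corrects for transcript length, *gst-1* averaged 303 TPM and *gst-7* averaged 238 TPM over the 12 libraries, and together they made up 46.9% to 69.7% of the family's TPM in each library. They were followed by *gst-4* with 48.2 TPM, *gstk-1* with 42.7 TPM, *gst-10* with 39.8 TPM, *gst-36* with 35.2 TPM, *gst-5* with 29.5 TPM and *gst-27* with 24.2 TPM. These 8 members held 80.4% of the family's mean TPM, and 9 members (*gst-2*, *gst-8*, *gst-17*, *gst-18*, *gst-23*, *gst-25*, *gst-31*, *gst-34* and *gst-37*) had mean levels of at most 0.236 CPM and did not pass the filter on low counts. The remaining 40 were tested among 14576 genes with edgeR's quasi-likelihood test, and members with a p under 0.1 after Benjamini-Hochberg adjustment over all of these genes are referred to as called.

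The summed level of the 49 members was lower on the sixth day than on the first in both genotypes. It was 572, 429 and 399.6 CPM in sixth-day *fog-2(lf)*, against 866, 736 and 878 CPM in *fog-2(lf)* on the first day. In wild type it was 385, 395 and 361 CPM on the sixth day, against 1031, 609 and 852 CPM on the first day. No sixth-day library reached the lowest first-day library of its genotype, and the first-day wild-type libraries were the most spread. The group means were 467 ± 92.1 CPM in sixth-day *fog-2(lf)*, 826 ± 78.7 CPM in *fog-2(lf)* on the first day, 380 ± 17.6 CPM in sixth-day wild type and 831 ± 212 CPM in wild type on the first day (SD, n = 3 each). On the first day the 2 genotypes overlapped, and on the sixth day all *fog-2(lf)* libraries lay just above all wild-type libraries in CPM. In TPM the sixth-day genotypes overlapped, with family sums of 843, 675 and 651 TPM in *fog-2(lf)* and 681, 726 and 686 TPM in wild type.

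In *fog-2(lf)*, 19 of 40 tested members (47.5%) were called lower on the sixth day than on the first, where 21.1% of all genes tested were lower, and 2 (5.0%) were called higher, where 18.0% of all genes were higher. In wild type, 23 of 40 (57.5%) were lower on the sixth day, against 25.4% of all genes, and 6 (15%) were higher, against 23.4% of all genes. The median log2 fold change of the tested members was -0.80 in *fog-2(lf)* and -0.99 in wild type, while the median of all genes tested was -0.03 in *fog-2(lf)* and 0.00 in wild type. Scaling by library totals alone moved the median of all genes in wild type to 0.42 and the split of its called genes to 7612 higher and 1783 lower, against 3416 higher and 3704 lower with TMM, and gave 8 members higher and 19 lower. In *fog-2(lf)* it moved the median of all genes to 0.10 and the split to 3650 higher and 2226 lower, against 2629 higher and 3081 lower with TMM, and gave 2 members higher and 17 lower. All 3 sixth-day libraries lay below all 3 first-day libraries for 20 members in *fog-2(lf)* (50.0%, background 26.6%) and for 21 members in wild type (52.5%, background 24.1%). The count of members called higher in *fog-2(lf)* depended on single libraries, as it was 4 without first-day *fog-2(lf)* replicate 1 and 1 without replicate 2 of that group or sixth-day *fog-2(lf)* replicate 3. Over all genes, 2030 of 15028 were higher without first-day *fog-2(lf)* replicate 1 and 2456 of 14989 without replicate 2 of that group. Without sixth-day *fog-2(lf)* replicate 3 it was 2007 of 15041.

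Both age comparisons use separate libraries, but they come from one fit that shares its scaling and its estimate of the spread over all 12 libraries. Most members called in *fog-2(lf)* were also called in wild type. Of the members called lower, 16 were lower in both genotypes, 84.2% of those of *fog-2(lf)* and 69.6% of those of wild type, while over all genes tested these shares were 65.6% and 54.6%. *gst-30*, *gst-35* and *gst-38* passed the test as lower in *fog-2(lf)* and not in wild type, and *gst-1*, *gst-19*, *gst-29*, *gst-32*, *gst-44*, *gstk-1* and *gstk-2* passed it as lower in wild type and not in *fog-2(lf)*. For *gst-35* and *gstk-1* the difference between the 2 age changes was itself called, and for the others it was not. Both members called higher in *fog-2(lf)*, *gst-43* and *gsto-2*, were also called higher in wild type, where *gst-3*, *gst-24*, *gst-35* and *gst-40* passed as well. The age change had the same sign in both genotypes in 32 of 40 members (80.0%, against 70.7% of all genes tested), and its size was smaller in *fog-2(lf)* in 28 of 40 (70.0%, against 56.2%).

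**Figure D1:**
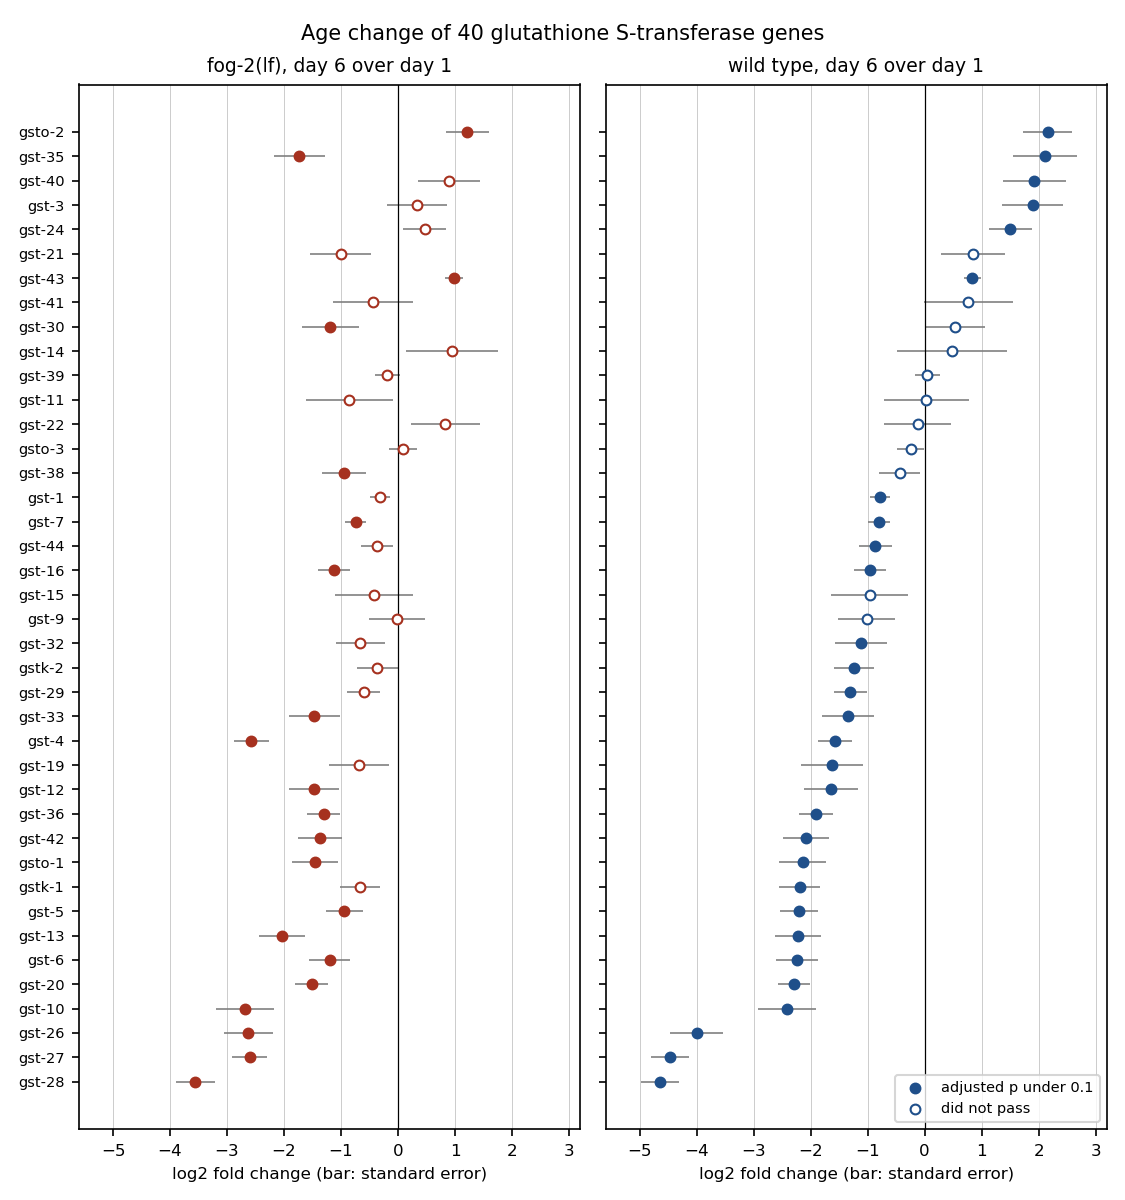
Log2 fold change of each of the 40 tested members between the sixth and the first day of adulthood, in *fog-2(lf)* (left panel) and wild type (right panel), ordered by the wild-type value. Points are fitted values, bars are standard errors and filled points passed an adjusted p under 0.1; 19 members are filled on the negative side in *fog-2(lf)* and 23 in wild type, and *gst-35* lies on opposite sides of 0 in the 2 panels.

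Calls as lower were least frequent under 1 CPM, among the members and among all genes tested. Among the 12 members with a mean of at least 10 CPM, 9 were lower in *fog-2(lf)*, where 23.6% of all genes at that level were lower, and 11 were lower in wild type, where 31.1% were. *gst-43* was the 1 of these 12 that was higher, in both genotypes. Of all genes at that level, 24.3% were higher in *fog-2(lf)* and 17.5% in wild type. Among the 16 members from 1 to 10 CPM, 7 were lower and 0 higher in *fog-2(lf)*, where 24.1% of genes at that level were lower and 12.6% higher, and 9 were lower and 1 higher in wild type, where 26.5% were lower and 26.3% higher. Among the 12 tested members under 1 CPM, 3 were lower and 1 higher in *fog-2(lf)*, where 11.4% of genes were lower and 10.3% higher, and 3 were lower and 4 higher in wild type, where 10.6% were lower and 34% higher.

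Markers of the intestine, where many members are known to be expressed, were also lower in sum on the sixth day. The 7 intestine markers in the files summed to 154 to 161 CPM in sixth-day *fog-2(lf)*, against 316 to 499 CPM in *fog-2(lf)* on the first day, and to 119 to 210 CPM in sixth-day wild type, against 835 to 856 CPM in first-day wild type. With age 3 of 7 were called lower in *fog-2(lf)* and 5 of 7 in wild type (*act-5*, *elt-7*, *ges-1*, *ifb-2* and *vha-6*), and 0 were called higher in either genotype. The other 4 in *fog-2(lf)* and 2 in wild type were not called, and the median log2 fold change of the 7 was -0.40 in *fog-2(lf)* and -1.51 in wild type. The intestinal regulator *elt-2* was not called, and no intestine marker was at 0 in any library. The 6 hypodermis markers summed to 92.9 to 96.2 CPM in sixth-day *fog-2(lf)*, against 628 to 1435 CPM in *fog-2(lf)* on the first day, and to 71.4 to 87.5 CPM in sixth-day wild type, against 360 to 1382 CPM in first-day wild type. Most of the first-day sum is the adult collagen *col-19*, which was lower with age in both genotypes. By number, 2 of the 6 were called higher and 1 lower in *fog-2(lf)*, and 3 were higher and 2 lower in wild type. The 4 body wall muscle markers summed to 194 to 227 CPM in sixth-day *fog-2(lf)*, against 1150 to 2250 CPM in *fog-2(lf)* on the first day, and to 267 to 352 CPM in sixth-day wild type, against 422 to 1340 CPM in first-day wild type, and 3 of 4 were called lower and 1 higher in *fog-2(lf)*, and 2 lower and 1 higher in wild type. Of 6 oocyte and eggshell markers, 4 were called lower in *fog-2(lf)* and 3 in wild type, with 0 higher in either. Of 5 germline markers, 3 were higher and 0 lower in *fog-2(lf)*, and 1 was higher and 1 lower in wild type. Of 7 tested sperm markers, 0 were higher and 0 lower in *fog-2(lf)*, and 1 was higher and 2 lower in wild type. Of 6 tested early embryo markers, 2 were higher and 0 lower in *fog-2(lf)*, and 2 were higher and 2 lower in wild type. Over all genes tested, 21.1% were lower and 18.0% higher in *fog-2(lf)*, and 25.4% were lower and 23.4% higher in wild type. The part of these cell types in the age changes of the family was not tested.

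The most abundant pair changed by less than most other members. *gst-1*, a pi-class enzyme on chromosome III (9059331 to 9060181, plus strand), had 219, 174 and 169 CPM in sixth-day *fog-2(lf)*, against 242, 209 and 251 CPM in *fog-2(lf)* on the first day. In wild type it had 139, 152 and 143 CPM on the sixth day, against 335, 188 and 224 CPM on the first day. The groups overlapped in *fog-2(lf)* and not in wild type. The log2 fold change was -0.32 in *fog-2(lf)* (SE 0.18, adjusted p = 0.208) and -0.78 in wild type (SE 0.18, adjusted p = 0.00547), and the difference between these changes was 0.47 (SE 0.25, adjusted p = 0.267).

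*gst-7*, on chromosome II (4882062 to 4883358, plus strand), was lower on the sixth day in both genotypes. It had 160, 126 and 96.8 CPM in sixth-day *fog-2(lf)*, against 196, 229 and 216 CPM in *fog-2(lf)* on the first day. Wild-type libraries had 103, 94.9 and 91.0 CPM on the sixth day, against 203, 125 and 177 CPM on the first day. All sixth-day libraries lay below all first-day libraries of the same genotype. The log2 fold change was -0.74 in *fog-2(lf)* (SE 0.19, adjusted p = 0.0117) and -0.80 in wild type (SE 0.19, adjusted p = 0.00603).

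*gst-4*, whose promoter drives the common SKN-1 reporter, fell with age in both genotypes and was higher in first-day *fog-2(lf)* than in first-day wild type. It lies on chromosome IV (10142225 to 10143099, plus strand). It had 19.8, 8.50 and 14.4 CPM in sixth-day *fog-2(lf)*, against 100.3, 78.4 and 74.9 CPM in *fog-2(lf)* on the first day. Its wild-type levels were 8.96, 13.3 and 8.53 CPM on the sixth day, against 39.6, 27.3 and 24.8 CPM on the first day. None of the 4 groups overlapped with another except the sixth-day groups of the 2 genotypes. The age change was -2.57 on the log2 scale in *fog-2(lf)* (SE 0.30, adjusted p = 0.000182) and -1.58 in wild type (SE 0.30, adjusted p = 0.00167), and *fog-2(lf)* was 1.47 above wild type on the first day (SE 0.29, adjusted p = 0.0137) and 0.47 above it on the sixth (SE 0.29, adjusted p = 0.306). The annotated span of *dhs-12* overlaps that of *gst-4* by 645 bp on the same strand. *dhs-12* had 43.5 to 49.9 CPM in sixth-day *fog-2(lf)*, against 48.9 to 53.98 CPM in *fog-2(lf)* on the first day, and 40.3 to 43.5 CPM in sixth-day wild type, against 57.8 to 73.2 CPM in first-day wild type. It was lower with age in wild type (-0.68, SE 0.099, adjusted p = 0.000378) and had an age change of -0.14 in *fog-2(lf)* (SE 0.099, adjusted p = 0.311), and the first-day difference between *fog-2(lf)* and wild type was called as well (-0.37, SE 0.099, adjusted p = 0.0381). The part of its reads in the values of *gst-4* was not tested.

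Enzymes known in *C. elegans* to conjugate 4-hydroxynonenal, a toxic product of lipid peroxidation, include *gst-5*, *gst-6*, *gst-8*, *gst-10* and *gst-24*. *gst-10*, on chromosome V (2561690 to 2564645, plus strand), had 19.2, 6.47 and 6.49 CPM in sixth-day *fog-2(lf)*, against 86.3, 46.9 and 72.9 CPM in *fog-2(lf)* on the first day. Among wild-type libraries it had 6.70, 7.54 and 2.05 CPM on the sixth day, against 27.9, 33.7 and 25.0 CPM on the first day. Every sixth-day library was below every first-day library, and the first-day *fog-2(lf)* libraries were all above the first-day wild-type ones. Its log2 change with age was -2.69 in *fog-2(lf)* (log2, SE 0.51, adjusted p = 0.00248) and -2.41 in wild type (SE 0.51, adjusted p = 0.00333), while the first-day difference of 1.25 between *fog-2(lf)* and wild type did not pass the test (SE 0.48, adjusted p = 0.116), although it did in 9 of 23 alternatives (adjusted p of 0.0465 to 0.0984), DESeq2, library totals and the replicate block included.

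*gst-5*, on chromosome II (10950352 to 10951603, plus strand), had 14.6, 8.79 and 7.06 CPM in sixth-day *fog-2(lf)*, against 14.4, 13.8 and 30.01 CPM in *fog-2(lf)* on the first day. In wild type it had 6.77, 8.63 and 6.91 CPM on the sixth day, against 37.4, 31.8 and 33.8 CPM on the first day. The wild-type groups lay far apart, whereas those of *fog-2(lf)* overlapped. Its age change was -2.21 in wild type (log2, SE 0.33, adjusted p = 0.00042). In *fog-2(lf)* the age change was -0.94 (SE 0.32, adjusted p = 0.043), which did not pass without first-day *fog-2(lf)* replicate 3 (adjusted p = 0.227), sixth-day *fog-2(lf)* replicate 2 (adjusted p = 0.129) or replicate 3 of that group (adjusted p = 0.156). The difference between the age changes, 1.27, lay just outside the threshold (SE 0.45, adjusted p = 0.101). It passed in 10 of 22 alternatives (adjusted p of 0.035 to 0.0968), and when the isoforms were tested in place of the gene sum, the isoform with the lowest p had a difference of 2.63 (adjusted p = 0.0361) and, in the sixth-day comparison, 1.57 between *fog-2(lf)* and wild type (adjusted p = 0.037).

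Its relative *gst-6* (chromosome II, 4879891 to 4881105, plus strand) had 7.06, 2.88 and 3.00 CPM in sixth-day *fog-2(lf)*, against 11.8, 7.36 and 10.4 CPM in *fog-2(lf)* on the first day. Wild-type libraries had 2.35, 2.96 and 2.63 CPM on the sixth day, against 13.1, 8.36 and 16.2 CPM on the first day. Sixth-day libraries were below first-day libraries throughout. The change was -1.197 in *fog-2(lf)* (log2, SE 0.36, adjusted p = 0.0262), lost without sixth-day *fog-2(lf)* replicate 3 (adjusted p = 0.104), and -2.24 in wild type (SE 0.37, adjusted p = 0.00082). Its neighbour *gst-8*, which encodes the remaining enzyme of this kind, averaged 0.236 CPM over the 12 libraries and was not tested.

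*gst-24*, the other 4-hydroxynonenal enzyme and a member of the first large group on chromosome II (13610443 to 13611366), went the other way. It had 5.53, 4.35 and 6.54 CPM in sixth-day *fog-2(lf)*, against 6.18, 2.61 and 3.07 CPM in *fog-2(lf)* on the first day. Its wild-type levels were 11.6, 13.9 and 11.1 CPM on the sixth day, against 5.72, 2.19 and 5.06 CPM on the first day. The sixth-day wild-type libraries were above the libraries of all other groups. With age it changed by 1.503 in wild type (log2, SE 0.38, adjusted p = 0.00912) and 0.47 in *fog-2(lf)* (SE 0.38, adjusted p = 0.377), but the difference between these changes did not pass (-1.03, SE 0.53, adjusted p = 0.242). On the sixth day *fog-2(lf)* was 1.16 below wild type on the log2 scale (SE 0.37, adjusted p = 0.0659), a call lost when any of 5 sixth-day libraries was left out (adjusted p of 0.116 to 0.193).

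Among other well-counted members, *gst-36*, *gst-20* and *gst-13* fell in both genotypes. *gst-36* (chromosome X, 9861646 to 9862960) had 14.1, 10.1 and 10.6 CPM in sixth-day *fog-2(lf)*, against 33.3, 17.9 and 34.8 CPM in *fog-2(lf)* on the first day. Among wild-type libraries it had 11.4, 12.4 and 10.2 CPM on the sixth day, against 60.0, 30.2 and 37.1 CPM on the first day. Sixth-day levels were close to each other in the 2 genotypes and below every first-day level. The age change was -1.30 in *fog-2(lf)* (log2, SE 0.29, adjusted p = 0.00577) and -1.91 in wild type (SE 0.29, adjusted p = 0.00049). For *gst-13* (chromosome II, 9231457 to 9232344) the values were 3.89, 4.10 and 3.44 CPM in sixth-day *fog-2(lf)*, against 18.1, 9.94 and 18.7 CPM in *fog-2(lf)* on the first day. In wild type they were 5.41, 4.74 and 4.16 CPM on the sixth day, against 33.8, 8.90 and 24.2 CPM on the first day. Replicate 2 was the lowest first-day library in both genotypes. Its log2 change with age was -2.03 in *fog-2(lf)* (log2, SE 0.40, adjusted p = 0.0034) and -2.22 in wild type (SE 0.41, adjusted p = 0.00141).

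*gst-20* (chromosome II, 13608154 to 13609824) also differed between the genotypes. It had 4.82, 3.53 and 3.44 CPM in sixth-day *fog-2(lf)*, against 11.9, 9.54 and 12.2 CPM in *fog-2(lf)* on the first day. In wild type it had 5.87, 7.28 and 5.29 CPM on the sixth day, against 33.8, 16.98 and 39.7 CPM on the first day. On both days every *fog-2(lf)* library was below every wild-type library. With age it changed by -1.52 in *fog-2(lf)* (log2, SE 0.28, adjusted p = 0.00246) and -2.29 in wild type (SE 0.29, adjusted p = 0.000164). *fog-2(lf)* was 1.42 below wild type on the first day (log2 fold change -1.42, SE 0.28, adjusted p = 0.0132), and the sixth-day difference of -0.65 did not pass (SE 0.28, adjusted p = 0.153), although it passed in 6 of 23 alternatives (adjusted p of 0.0369 to 0.077), among them library totals, the 3 limma fits and the fit without first-day wild type replicate 2.

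**Figure D2:**
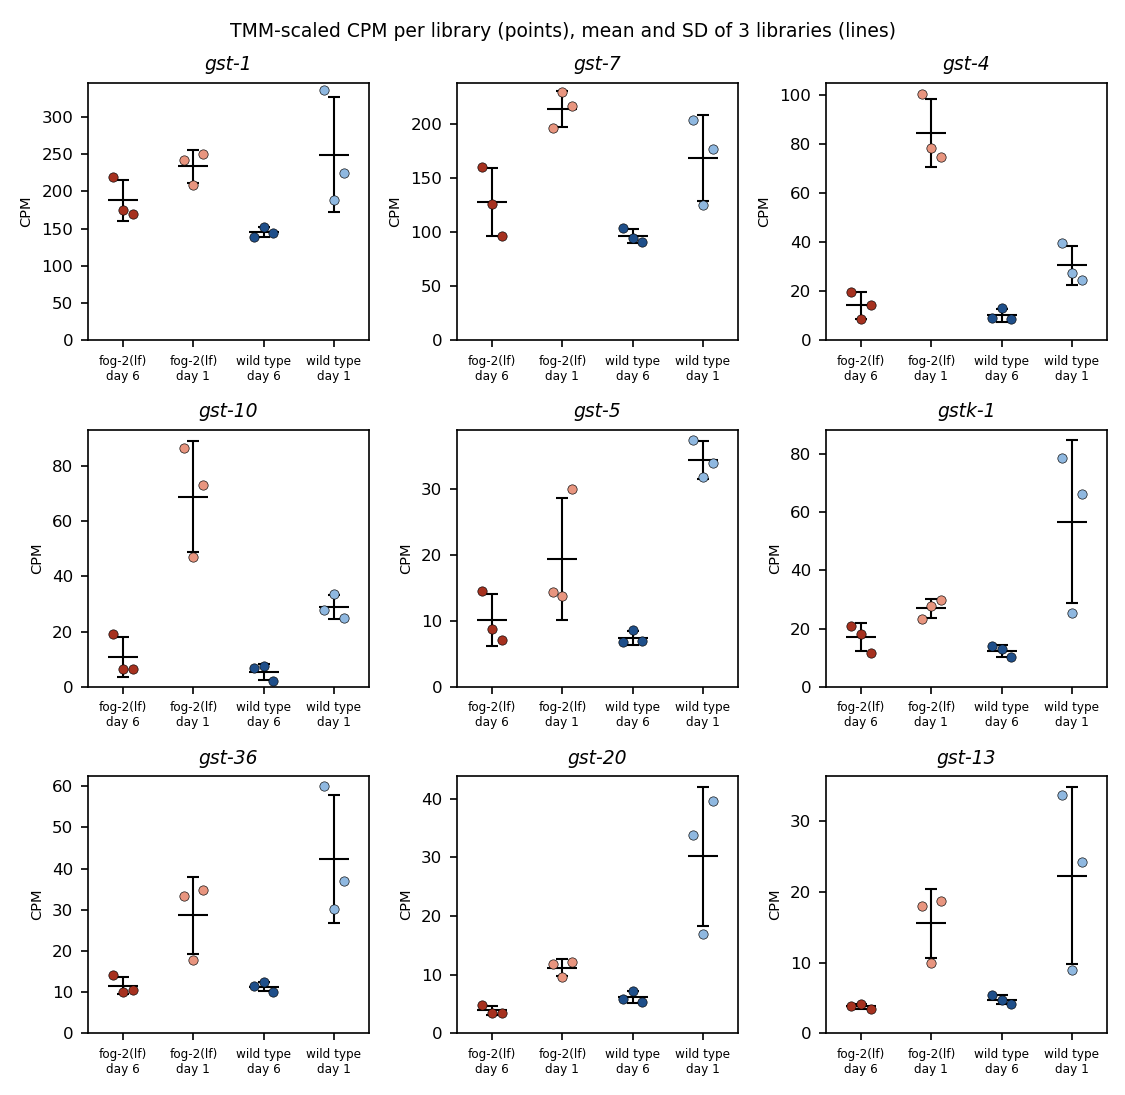
CPM per library (points) of *gst-1*, *gst-7*, *gst-4*, *gst-10*, *gst-5*, *gstk-1*, *gst-36*, *gst-20* and *gst-13* in sixth-day *fog-2(lf)*, first-day *fog-2(lf)*, sixth-day wild type and first-day wild type, from left to right. Lines are the mean and SD of 3 libraries and each axis starts at 0; for *gst-4* and *gst-10* the first-day *fog-2(lf)* points are the highest, and for *gst-5*, *gst-20* and *gst-36* the mean is highest in first-day wild type.

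*gst-42* encodes a zeta-class enzyme, a maleylacetoacetate isomerase, which acts in the breakdown of tyrosine. Whether other members belong to this class was not examined here. *gst-42* lies on chromosome X (11726264 to 11727936). It had 7.17, 6.02 and 3.47 CPM in sixth-day *fog-2(lf)*, against 12.2, 9.70 and 20.9 CPM in *fog-2(lf)* on the first day. Wild-type libraries had 5.25, 4.12 and 2.66 CPM on the sixth day, against 20.1, 10.3 and 20.7 CPM on the first day. The groups of each genotype did not overlap. Its level fell with age in wild type (log2 fold change -2.08, SE 0.40, adjusted p = 0.00184) and in *fog-2(lf)* (-1.37, SE 0.39, adjusted p = 0.0207), in the second case not without first-day *fog-2(lf)* replicate 3 (adjusted p = 0.103).

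The omega-class members, which act mainly as thiol transferases and dehydroascorbate reductases, differed among themselves. *gsto-1* had 1.21, 1.498 and 1.02 CPM in sixth-day *fog-2(lf)*, against 5.22, 1.44 and 3.59 CPM in *fog-2(lf)* on the first day, and 1.05, 0.999 and 1.101 CPM in sixth-day wild type, against 3.45, 5.86 and 4.60 CPM in first-day wild type. It fell with age in *fog-2(lf)*, where 1 first-day library overlapped (log2 fold change -1.45, SE 0.40, adjusted p = 0.0184), and in wild type (-2.14, SE 0.41, adjusted p = 0.00193). *gsto-2* rose with age from a low base. It had 0.571, 0.537 and 1.09 CPM in sixth-day *fog-2(lf)*, against 0.386, 0.240 and 0.327 CPM in *fog-2(lf)* on the first day, and 0.711, 0.548 and 0.764 CPM in sixth-day wild type, against 0.108, 0.168 and 0.173 CPM in first-day wild type. Groups did not overlap in either genotype. The change was 1.21 in *fog-2(lf)* (log2, SE 0.38, adjusted p = 0.0312), lost without sixth-day replicate 3 (adjusted p = 0.176) or first-day replicate 2 (adjusted p = 0.102), and 2.16 in wild type (SE 0.43, adjusted p = 0.00242).

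*gsto-3* had no called age change. It had 6.81, 7.12 and 9.41 CPM in sixth-day *fog-2(lf)*, against 11.5, 9.60 and 11.4 CPM in sixth-day wild type, and 6.79, 7.54 and 7.61 CPM in *fog-2(lf)* on the first day, against 12.3, 8.42 and 17.9 CPM in first-day wild type. All *fog-2(lf)* libraries were below all wild-type libraries of the same day. Only the first-day difference was called (log2 fold change -0.81, SE 0.24, adjusted p = 0.0555), and it was lost when any of 4 libraries was left out, namely first-day wild type replicate 3 or any replicate of first-day *fog-2(lf)* (adjusted p of 0.109 to 0.147). The sixth-day value was -0.48 (SE 0.24, adjusted p = 0.213), which passed in 5 of 23 alternatives (adjusted p of 0.0528 to 0.0953), including without first-day wild type replicate 2.

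The kappa-class members form a branch separate from the cytosolic enzymes and are known from mitochondria and peroxisomes. *gstk-1* (chromosome II, 9656705 to 9657719, plus strand) had 21.01, 18.2 and 11.6 CPM in sixth-day *fog-2(lf)*, against 23.3, 27.9 and 29.6 CPM in *fog-2(lf)* on the first day. Its wild-type levels were 14.1, 12.9 and 10.1 CPM on the sixth day, against 78.6, 25.2 and 66.1 CPM on the first day. First-day wild type was widely spread, with replicate 2 at the level of first-day *fog-2(lf)*. The age change was -0.67 in *fog-2(lf)* (log2, SE 0.35, adjusted p = 0.168) and -2.19 in wild type (SE 0.36, adjusted p = 0.00077), and without first-day wild type replicate 2 the *fog-2(lf)* change also passed (-0.67, adjusted p = 0.026).

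The difference between the 2 age changes of *gstk-1* was 1.53 (SE 0.49, adjusted p = 0.0782), and *fog-2(lf)* was below wild type on the first day (-1.07, SE 0.35, adjusted p = 0.0727). Both calls were fragile: the first was lost without any of 10 of the 12 libraries (adjusted p of 0.114 to 0.175), and the second without any of 7 (adjusted p of 0.102 to 0.205). Its paralog *gstk-2* fell with age in wild type (-1.24, SE 0.35, adjusted p = 0.0162), where it had 1.85, 1.29 and 1.28 CPM on the sixth day, against 2.95, 2.29 and 5.35 CPM on the first day. In *fog-2(lf)* the values overlapped, with 1.21, 1.02 and 1.46 CPM on the sixth day, against 2.12, 1.36 and 1.27 CPM on the first day (-0.36, SE 0.36, adjusted p = 0.48). The first-day difference of *gstk-2* between *fog-2(lf)* and wild type was -1.14 (SE 0.35, adjusted p = 0.0616), which was lost without first-day wild type replicate 3 (adjusted p = 0.174) and without first-day *fog-2(lf)* replicates 2 or 3 (adjusted p = 0.152 and 0.188).

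The members with the most negative age changes in wild type were 3 neighbours at one end of the second large group on chromosome II, which span 15163817 to 15167577. In *fog-2(lf)* one of them, *gst-28*, also had the most negative change, followed by *gst-10*, *gst-26* and *gst-27*. *gst-28* had 0.357, 0.198 and 0.223 CPM in sixth-day *fog-2(lf)*, against 3.06, 2.11 and 3.95 CPM in *fog-2(lf)* on the first day, and 0.309, 0.451 and 0.275 CPM in sixth-day wild type, against 7.59, 8.90 and 9.55 CPM in first-day wild type. On the first day all *fog-2(lf)* libraries were below all wild-type libraries, while the sixth-day groups overlapped. Its log2 change with age was -3.55 in *fog-2(lf)* (log2, SE 0.33, adjusted p = 4.92e-05) and -4.64 in wild type (SE 0.34, adjusted p = 6.51e-06), which is 11.7 times lower in sixth-day *fog-2(lf)* and 24.9 times lower in sixth-day wild type. The first-day genotype difference was -1.51 (SE 0.28, adjusted p = 0.0105).

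*gst-27* was also lower with age in both genotypes, at a higher level. It had 4.57, 3.62 and 2.08 CPM in sixth-day *fog-2(lf)*, against 24.4, 15.2 and 22.5 CPM in *fog-2(lf)* on the first day. Among wild-type libraries it had 1.98, 1.93 and 1.53 CPM on the sixth day, against 45.0, 27.7 and 47.8 CPM on the first day. On the first day *fog-2(lf)* lay below wild type and on the sixth day above it, without overlap on either day. With age it changed by -2.60 in *fog-2(lf)* (log2, SE 0.31, adjusted p = 0.000184) and -4.47 in wild type (SE 0.34, adjusted p = 8.65e-06), and these changes differed by 1.86 (SE 0.42, adjusted p = 0.0303). The genotype differences were -0.96 on the first day (SE 0.29, adjusted p = 0.0557) and 0.91 on the sixth (SE 0.31, adjusted p = 0.0802). Each of these genotype calls was lost when some single libraries were left out: the first without any of 4 of the first-day libraries (adjusted p of 0.127 to 0.153), and the second without any of 6 libraries (adjusted p of 0.104 to 0.278).

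*gst-26*, next to it, had 2.35, 1.84 and 1.14 CPM in sixth-day *fog-2(lf)*, against 13.2, 6.29 and 13.3 CPM in *fog-2(lf)* on the first day. In wild type it had 0.402, 1.19 and 1.101 CPM on the sixth day, against 19.3, 12.8 and 11.2 CPM on the first day. Sixth-day libraries were far below first-day libraries in both genotypes, and the genotypes overlapped on each day. The age change was -2.63 in *fog-2(lf)* (log2, SE 0.43, adjusted p = 0.00116) and -4.004 in wild type (SE 0.46, adjusted p = 9.67e-05), with a difference of 1.38 that did not pass (SE 0.60, adjusted p = 0.168).

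The other tested members of this group changed less or in another direction. *gst-29* fell in wild type (-1.30, SE 0.30, adjusted p = 0.00511), with 1.58, 1.45 and 1.41 CPM on the sixth day, against 2.70, 3.201 and 5.12 CPM on the first day. In *fog-2(lf)* it had 3.53, 2.23 and 3.44 CPM on the sixth day, against 5.86, 3.84 and 4.31 CPM on the first day (-0.60, SE 0.28, adjusted p = 0.131). The sixth-day *fog-2(lf)* libraries all lay above the sixth-day wild-type ones (1.05, SE 0.29, adjusted p = 0.041), a call that was lost without any of 4 sixth-day libraries (adjusted p of 0.102 to 0.143). *gst-39* showed no called age change in either genotype. It was higher in first-day *fog-2(lf)*, at 12.1, 8.82 and 12.2 CPM, than in first-day wild type, at 7.84, 6.06 and 6.85 CPM (0.67, SE 0.22, adjusted p = 0.0727), a call lost without first-day wild type replicates 2 or 3 or first-day *fog-2(lf)* replicates 1 or 3 (adjusted p of 0.127 to 0.198).

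At the other end of the group *gst-35* (15183807 to 15185389) changed in opposite directions in the 2 genotypes. It had 0.499, 0.254 and 0.545 CPM in sixth-day *fog-2(lf)*, against 2.06, 1.01 and 1.27 CPM in *fog-2(lf)* on the first day. Wild-type libraries had 0.618, 0.548 and 0.245 CPM on the sixth day, against 0.144, 0.101 and 0.0575 CPM on the first day. First-day *fog-2(lf)* was the highest group and first-day wild type the lowest, and the sixth-day groups lay between these and overlapped. These levels rest on few reads, with 14, 9 and 22 counts in sixth-day *fog-2(lf)*, 64, 38 and 39 in first-day *fog-2(lf)*, 20, 17 and 8 in sixth-day wild type and 4, 3 and 1 in first-day wild type. Its log2 change with age was -1.73 in *fog-2(lf)* (log2, SE 0.44, adjusted p = 0.0127) and 2.11 in wild type (SE 0.57, adjusted p = 0.0119), a difference of -3.85 (SE 0.72, adjusted p = 0.0181). First-day *fog-2(lf)* was 3.73 above first-day wild type on the log2 scale (SE 0.54, adjusted p = 0.00455).

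**Figure D3:**
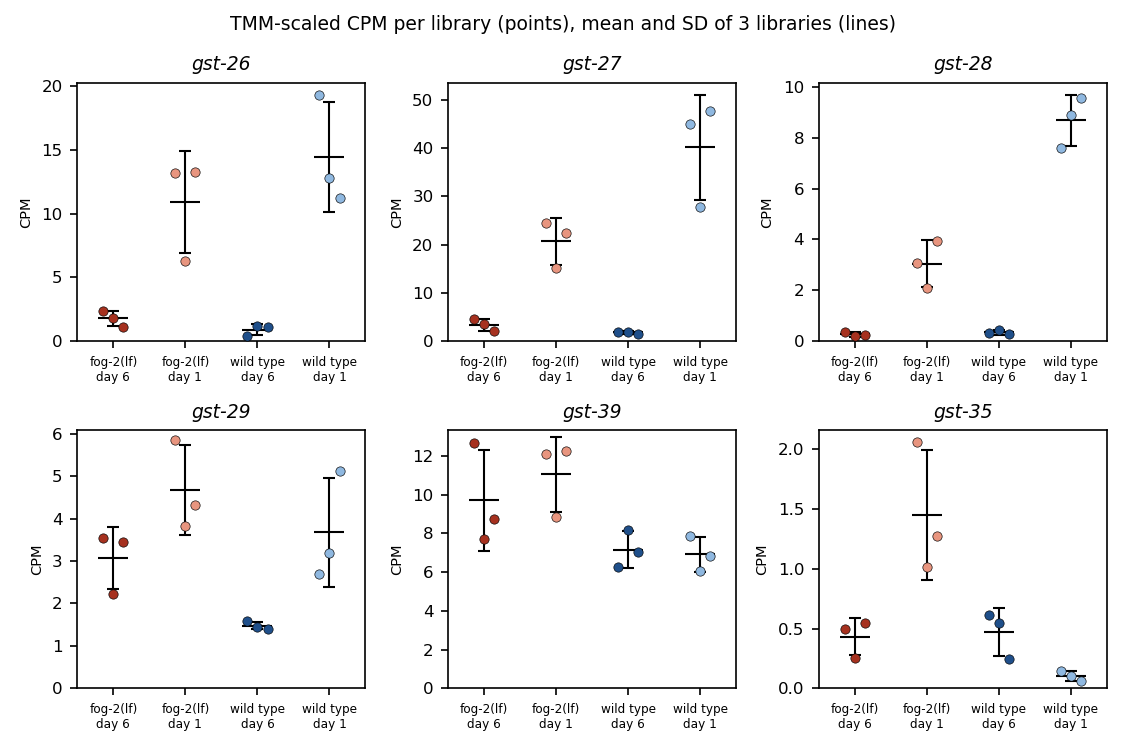
CPM per library (points) of 6 neighbouring members on chromosome II, *gst-26*, *gst-27*, *gst-28*, *gst-29*, *gst-39* and *gst-35*, in sixth-day *fog-2(lf)*, first-day *fog-2(lf)*, sixth-day wild type and first-day wild type, from left to right, with the mean and SD of 3 libraries. *gst-26*, *gst-27* and *gst-28* are high on the first day and near 0 on the sixth, whereas *gst-35* is highest in first-day *fog-2(lf)* and lowest in first-day wild type.

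In the second large group as a whole, 7 of 9 members were tested, of which 4 were lower and 0 higher with age in *fog-2(lf)*, and 5 were lower and 1 higher in wild type. These are 57.1% and 71.4% lower, against 47.5% and 57.5% of all tested members and 21.1% and 25.4% of all genes. In the first large group 7 of 9 were tested, of which 3 were lower and 0 higher in *fog-2(lf)*, and 4 were lower and 1 (*gst-24*) higher in wild type, or 42.9% and 57.1% lower. There *gst-12* and *gst-16* were lower in both genotypes: *gst-12* with log2 fold changes of -1.48 in *fog-2(lf)* (SE 0.45, adjusted p = 0.0271) and -1.65 in wild type (SE 0.47, adjusted p = 0.0171), and *gst-16* with changes of -1.12 in *fog-2(lf)* (SE 0.28, adjusted p = 0.0108) and -0.96 in wild type (SE 0.28, adjusted p = 0.0174). The wild-type call of *gst-16* ended when libraries were scaled by their totals (-0.55, adjusted p = 0.122). *gst-15* was too variable to place. It had 2.26, 4.99 and 5.72 CPM in sixth-day wild type, against 5.58, 1.85 and 18.2 CPM in first-day wild type, and its age change there (-0.97, SE 0.67, adjusted p = 0.275) passed without first-day wild type replicate 2 (-1.45, adjusted p = 0.0517).

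**Figure D4:**
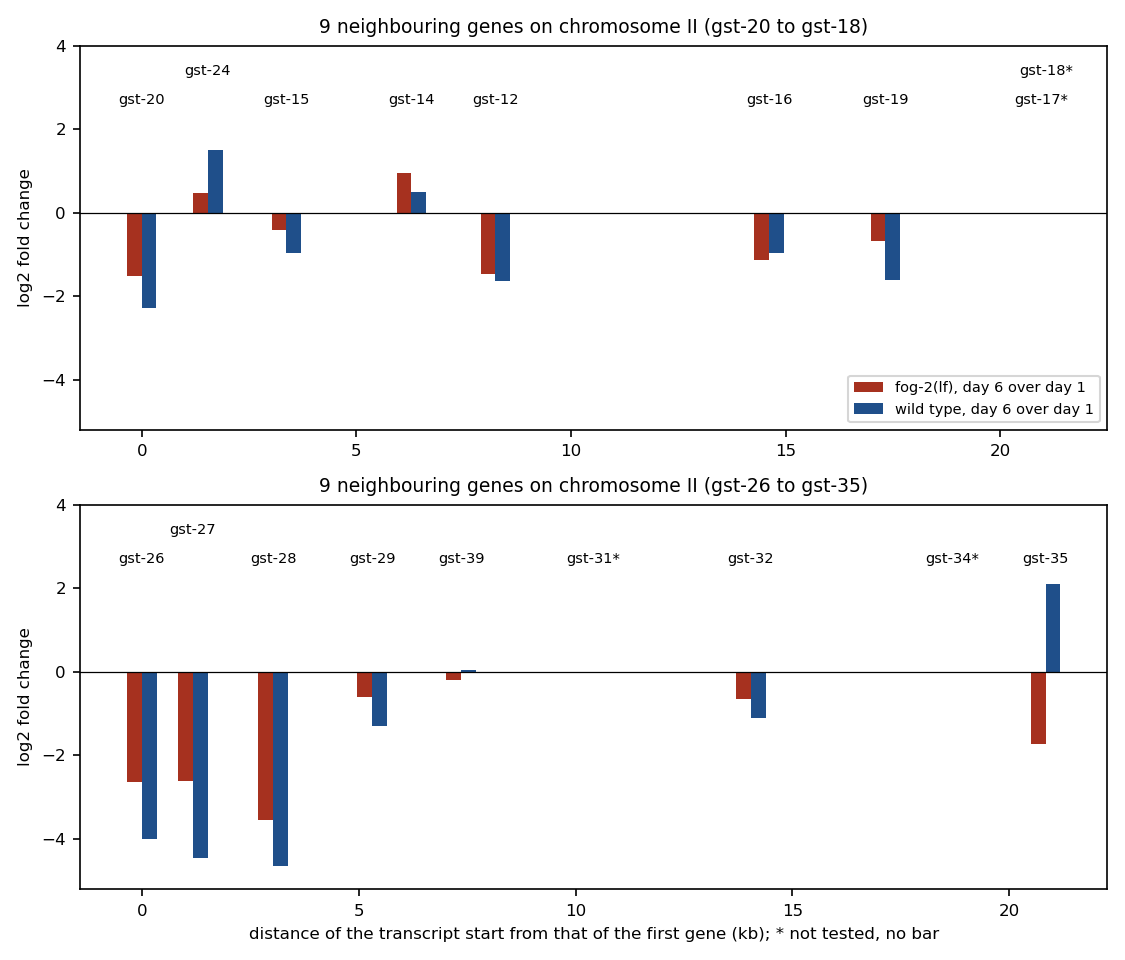
Log2 fold change with age of the members of the 2 large groups on chromosome II, plotted by the distance of each transcript start from that of the first gene in kb, with *fog-2(lf)* left and wild type right in each pair of bars. Members without bars, marked with a star, did not pass the filter on low counts; bars for *gst-26*, *gst-27* and *gst-28* reach furthest down, and *gst-24* and *gst-35* reach furthest up in wild type.

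Of the members that rose with age, *gst-43*, on chromosome I, was the only one at more than 10 CPM on average and was higher in both genotypes. It had 20.7, 15.6 and 18.9 CPM in sixth-day *fog-2(lf)*, against 10.3, 8.58 and 9.11 CPM in *fog-2(lf)* on the first day. Its wild-type levels were 15.3, 14.05 and 15.4 CPM on the sixth day, against 9.50, 7.14 and 8.40 CPM on the first day. The 2 ages did not overlap. The change was 0.98 in *fog-2(lf)* (log2, SE 0.15, adjusted p = 0.000898) and 0.84 in wild type (SE 0.15, adjusted p = 0.00148), a difference of 0.14 (SE 0.22, adjusted p = 0.707).

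*gst-3* and *gst-40* rose in wild type at low levels. *gst-3* (chromosome IV, 10139380 to 10140243) had 2.66, 0.741 and 1.44 CPM in sixth-day wild type, against 0.504, 0.337 and 0.460 CPM in first-day wild type (1.89, SE 0.54, adjusted p = 0.0165). *gst-40* (chromosome IV, 760502 to 762419) had 0.525, 0.644 and 0.611 CPM in sixth-day wild type, against 0.108, 0.101 and 0.288 CPM in first-day wild type (1.92, SE 0.55, adjusted p = 0.0172). Neither pair of groups overlapped. In *fog-2(lf)* the age change was 0.33 for *gst-3* (SE 0.52, adjusted p = 0.669) and 0.90 for *gst-40* (SE 0.54, adjusted p = 0.236). Their differences between the genotypes did not pass, at -1.56 for *gst-3* (SE 0.75, adjusted p = 0.211) and -1.02 for *gst-40* (SE 0.79, adjusted p = 0.438).

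**Figure D5:**
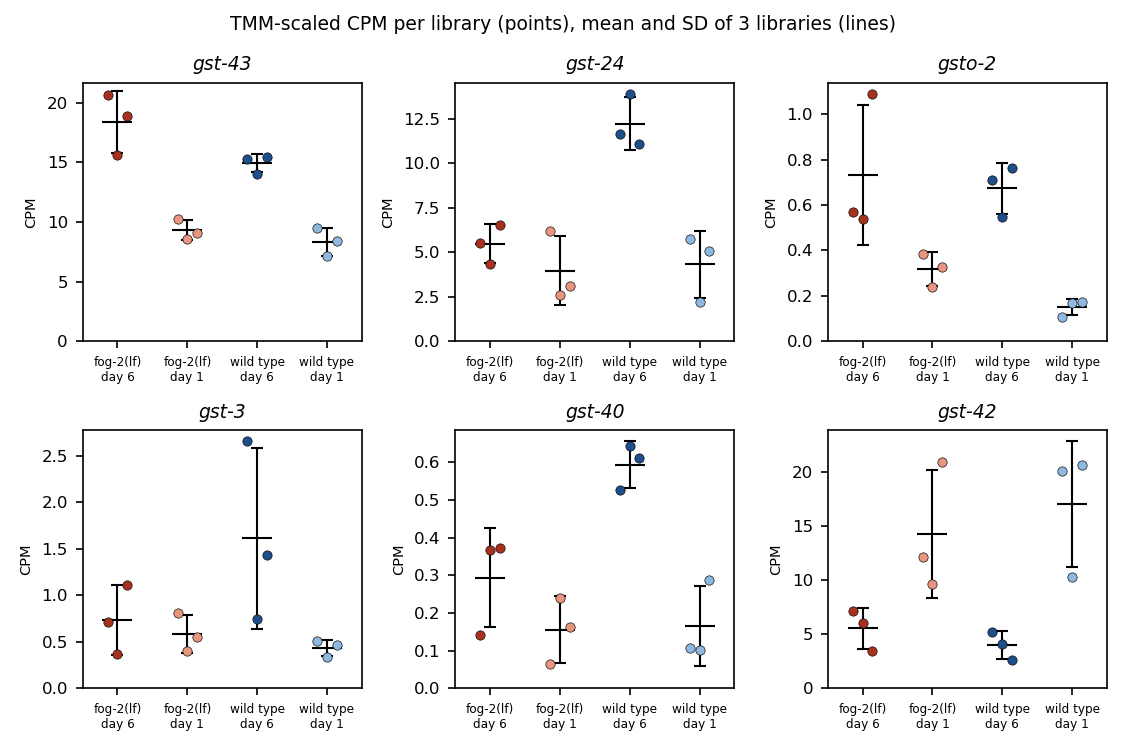
CPM per library (points) of *gst-43*, *gst-24*, *gsto-2*, *gst-3*, *gst-40* and, for comparison, *gst-42* in sixth-day *fog-2(lf)*, first-day *fog-2(lf)*, sixth-day wild type and first-day wild type, from left to right, with the mean and SD of 3 libraries. The first 5 have higher sixth-day than first-day points in wild type, whereas *gst-42* has higher first-day points in both genotypes.

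The remaining called age changes were smaller or rested on few reads. *gst-33* was lower with age in *fog-2(lf)* (-1.47, SE 0.45, adjusted p = 0.0279) and in wild type (-1.34, SE 0.46, adjusted p = 0.0375); the first call was lost without 1 library, first-day *fog-2(lf)* replicate 3 (adjusted p = 0.135), and the second without sixth-day wild type replicates 1 or 2 (adjusted p = 0.101 and 0.112). In wild type *gst-19* (-1.62, SE 0.54, adjusted p = 0.0334), *gst-32* (-1.12, SE 0.46, adjusted p = 0.0752) and *gst-44* (-0.86, SE 0.29, adjusted p = 0.0344) were lower, each with some library whose omission ended the call: 1 for *gst-19* (first-day wild type replicate 1, adjusted p = 0.103), 2 for *gst-44* (adjusted p = 0.102 and 0.137) and 6 for *gst-32* (adjusted p of 0.101 to 0.241). In *fog-2(lf)* the same was true of *gst-30* (-1.19, SE 0.50, adjusted p = 0.0933), whose call ended without any of 7 libraries (adjusted p of 0.109 to 0.293), and of *gst-38* (-0.95, SE 0.38, adjusted p = 0.0809), whose call ended without any of 6 (adjusted p of 0.101 to 0.254). Of the tested members, 7 were called in none of the 5 comparisons: *gst-9*, *gst-11*, *gst-14*, *gst-15*, *gst-21*, *gst-22* and *gst-41*.

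The first-day comparison of *fog-2(lf)* with wild type addresses the mutation together with the missing sperm. By the sixth day wild-type hermaphrodites have used up their own sperm, so that neither genotype has any in the sixth-day comparison. On the first day 3 of 40 members (7.5%) were higher in *fog-2(lf)*, where 7.72% of all genes tested were higher, and 6 (15%) were lower, where 10.6% of all genes were lower. Called in either direction were 9 members (22.5%), against 18.3% of all genes, and all first-day *fog-2(lf)* libraries lay above all first-day wild-type libraries for 8 members (20.0%, background 12.8%) and below them for 7 (17.5%, background 13.4%). The 3 higher members were *gst-4*, *gst-35* and *gst-39*, and the 6 lower members were *gst-20*, *gst-27*, *gst-28*, *gsto-3*, *gstk-1* and *gstk-2*. The median log2 fold change of the members was -0.11, against -0.01 over all genes tested. The count of lower members rested on single libraries: it was 11 without first-day wild type replicate 2, 2 without first-day wild type replicate 3 or first-day *fog-2(lf)* replicate 2, and 3 without first-day *fog-2(lf)* replicate 3. Over all genes the count of lower ones moved too, from 1540 with all libraries to 2160 of 14932 without first-day wild type replicate 2. It was 1227 without first-day wild type replicate 3, and 873 and 685 without first-day *fog-2(lf)* replicates 2 and 3. Scaled by library totals alone, which moves the median of all genes by more than 0.1 in this comparison (to 0.14), 7 members were higher and 6 lower, and the members' median was 0.04. Of all 14576 genes, 2528 were then higher and 1064 lower. First-day wild-type libraries enter both this comparison and the age change of wild type, so the values of one bear on the other.

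On the sixth day few members differed between the genotypes, with 4 of 40 called in either direction (10%), against 20.3% of all genes. In *fog-2(lf)* 2 of 40 members (5.0%) were higher, *gst-27* and *gst-29*, where 9.83% of all genes were higher. Another 2 (5.0%) were lower, *gst-24* and *gst-38*, where 10.4% of all genes were lower. *gst-38* (chromosome V, 15915162 to 15916070) had 0.571, 0.311 and 0.619 CPM in sixth-day *fog-2(lf)*, against 1.05, 1.095 and 1.99 CPM in sixth-day wild type. The groups did not overlap (-1.46, SE 0.38, adjusted p = 0.0323), and the call ended without sixth-day *fog-2(lf)* replicate 2 (adjusted p = 0.118) or sixth-day wild type replicate 3 (adjusted p = 0.119). The members' median was 0.24, against -0.02 over all genes tested, and 24 of 40 values were positive. The counts moved with single libraries: members called higher numbered 4 without first-day wild type replicate 2, 0 without sixth-day *fog-2(lf)* replicate 1 or sixth-day wild type replicates 2 or 3, and 1 without sixth-day *fog-2(lf)* replicate 2, first-day *fog-2(lf)* replicate 3 or sixth-day wild type replicate 1. Counts over all genes moved too. With all libraries 1433 genes were higher. Without first-day wild type replicate 2 it was 1997 of 14932, and without sixth-day *fog-2(lf)* replicate 1 it was 529 of 15044. Without sixth-day wild type replicates 2 or 3 it was 562 and 856. Members called lower numbered 5 without first-day wild type replicate 2, 0 without sixth-day *fog-2(lf)* replicate 2 or sixth-day wild type replicate 3, and 1 without sixth-day *fog-2(lf)* replicate 1 or sixth-day wild type replicate 2. Over all genes, the lower ones numbered 1521 with all libraries and 2214 without first-day wild type replicate 2. They numbered 756 without sixth-day *fog-2(lf)* replicate 2 and 977 without sixth-day wild type replicate 3. With library totals alone 1 member was higher and 3 were lower of 40, beside 454 higher and 2325 lower of all 14576 genes.

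Whether the age change itself differed between the genotypes was tested by the interaction, the age change in *fog-2(lf)* minus that in wild type. It was positive and called for 2 of 40 members (5.0%), *gst-27* and *gstk-1*, where 7.36% of all genes were called, and negative and called for 1 (2.50%), *gst-35*, where 7.92% of all genes were called. The members' median was 0.40, against 0.02 over all genes tested, and 25 of 40 values were positive, although the members' median was -0.16 when limma was fitted to log2(TPM + 0.5), a scaling that moved the median of all genes to -0.30. Without first-day wild type replicate 2 5 members were called positive, *gst-1* (0.64, adjusted p = 0.0743), *gst-5* (1.32, adjusted p = 0.0898) and *gst-20* (1.06, adjusted p = 0.0293) in addition, and 1 was called positive without any of 9 of the other libraries. Over all genes, positive calls numbered 1073 with all libraries and 1766 of 14932 without first-day wild type replicate 2. Without any of those 9 libraries they numbered 471 to 1236. Members called negative numbered 2 or 3 without some single libraries, including 3 without first-day *fog-2(lf)* replicate 2, where 1147 of 14989 genes were negative. With library totals alone 1 member was called positive and 4 negative of 40, beside 412 positive and 2779 negative of all 14576 genes. Every other interaction missed the threshold, which does not show that those members aged alike in both genotypes.

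Genes that make, recycle and act beside glutathione were called in both directions. The shares of all genes tested to set beside these counts are 18.0% higher and 21.1% lower in *fog-2(lf)*, and 23.4% higher and 25.4% lower in wild type. In the glutathione synthesis list of 6 genes, 1 was called higher and 0 lower with age in *fog-2(lf)*, and 0 were higher and 3 lower in wild type. *gcs-1*, the glutamate-cysteine ligase that sets the rate of synthesis and a known SKN-1 target, had 124 to 132 CPM in sixth-day *fog-2(lf)*, against 126 to 135 CPM in *fog-2(lf)* on the first day, and 135.7 to 142.2 CPM in sixth-day wild type, against 118 to 139 CPM in first-day wild type. Its age change was -0.03 in *fog-2(lf)* (SE 0.07, adjusted p = 0.805) and 0.12 in wild type (SE 0.07, adjusted p = 0.17). The lower genes in wild type were *cbs-1*, *cth-1* and *cth-2*, which belong to transsulfuration, the route that makes cysteine. *cth-1* had a log2 fold change of -1.18 there (SE 0.30, adjusted p = 0.00947) and of -0.11 in *fog-2(lf)* (SE 0.29, adjusted p = 0.812).

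In the redox list of 22 reductases, thioredoxins, glutaredoxins, peroxidases and glyoxalases, 5 were higher and 5 lower with age in *fog-2(lf)* (22.7% each), and 5 were higher (22.7%) and 8 lower (36.4%) in wild type, shares close to those of all genes except for the lower genes in wild type. *gsr-1*, the glutathione reductase, fell by a similar amount in *fog-2(lf)* (-0.52, SE 0.07, adjusted p = 0.000503) and in wild type (-0.62, SE 0.07, adjusted p = 0.000123). The peroxidase gene *gpx-7* had the list's most negative change in both genotypes, with -2.42 in *fog-2(lf)* (SE 0.50, adjusted p = 0.00424) and -4.31 in wild type (SE 0.55, adjusted p = 0.000181). The median of the list was -0.06 in *fog-2(lf)* and -0.03 in wild type.

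Conjugates leave the cell through ABC transporters of the MRP group, of which 8 were listed. With age 0 were higher and 3 lower in *fog-2(lf)*, and 1 was higher and 2 lower in wild type. *mrp-2* had 8.24, 9.61 and 10.5 CPM in sixth-day *fog-2(lf)*, against 6.95, 8.18 and 9.34 CPM in *fog-2(lf)* on the first day. Among wild-type libraries it had 24.8, 46.1 and 41.2 CPM on the sixth day, against 5.72, 6.94 and 7.77 CPM on the first day. Sixth-day wild type stood above all other groups. With age it changed by 0.21 in *fog-2(lf)* (SE 0.22, adjusted p = 0.509) and 2.46 in wild type (SE 0.23, adjusted p = 3e-05), a difference of -2.25 (SE 0.32, adjusted p = 0.0106).

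Among 12 regulators of detoxification genes, 3 were higher and 3 lower with age in *fog-2(lf)*, and 3 were higher and 1 lower in wild type. *skn-1* itself had 214 to 226 CPM in sixth-day *fog-2(lf)*, against 191 to 220 CPM in *fog-2(lf)* on the first day, and 175 to 243 CPM in sixth-day wild type, against 185 to 202 CPM in first-day wild type. Its age change was 0.13 in *fog-2(lf)* (SE 0.11, adjusted p = 0.402) and 0.17 in wild type (SE 0.11, adjusted p = 0.24). *wdr-23*, whose protein targets SKN-1 for degradation, had an age change of 0.16 in *fog-2(lf)* (SE 0.07, adjusted p = 0.125) and of 0.17 in wild type, where it was called (SE 0.07, adjusted p = 0.0805). *elt-3*, a GATA factor of the hypodermis that takes part in the induction of *gst-4*, was lower with age in *fog-2(lf)* (-1.04, SE 0.34, adjusted p = 0.0373) and not called in wild type (0.04, SE 0.33, adjusted p = 0.93). These are transcript levels and carry no measure of SKN-1 protein.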

How the data were processed

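RNA-seq data of 12 libraries were analysed from 2 kinds of values. The authors deposited estimated counts per isoform as kallisto assigned them, unscaled. They also deposited TPM, which correct these counts for effective length and bring each library to one sum. kallisto, sleuth and WBcel235 are named in the submitters' processing notes, where no versions are given. The kit does not mark strand, so reads of genes that overlap on opposite strands, such as *gst-9* with *msp-33* and *gst-36* with *scav-5*, cannot be told apart, and 50-base reads shared by paralogs were divided by kallisto.

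Estimated counts of 32905 isoforms were rounded and summed to 22059 genes. Of the isoforms, 307, with 0.153% of the counts, matched no gene and kept their own names. Genes were kept by filterByExpr, scaled with TMM and fitted with edgeR 4.0.16 (quasi-likelihood, R 4.3.3) over all 12 libraries with a mean for each of the 4 groups. The 5 comparisons were age in each genotype, genotype on each day and their interaction, called at an adjusted p (Benjamini-Hochberg over 14576 genes) under 0.1, the threshold of the study. SEs were obtained as the absolute log2 fold change over the root of the F statistic. The family members and the gene lists were chosen with earlier results of these data known. Any member could be named, and full values were given for the 8 with the highest TPM, for up to 6 called members of at least 5 CPM per direction and comparison, and for members with a known role.

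Alternatives were RLE scaling, library totals only, no low-count filter, DESeq2 1.42.0, limma 3.58.1 on log2(TPM + 0.5) with offsets of 0.1 and 1, an adjusted p under 0.05, isoforms in place of gene sums, the compared libraries alone, a replicate block and each library left out. The fit was tried on simulated counts with one mean per gene in all libraries and 200 changed genes among 14576, up or down. The age change was placed in the sixth-day libraries of both genotypes, and the genotype change in the *fog-2(lf)* libraries of both days. For age in wild type the fit recovered 44.3% of 2-fold and 78.6% of 4-fold changes with 8 false calls. For genotype on the first day it recovered 51.8% and 68.9% with 5, and for the interaction 33.3% and 71.0% with 9. In the real data 48.8% of genes were called with age in wild type, so these values do not give the recovery or the false calls there. Per the paper the replicates are biological, and they differed beyond sampling noise in every group. Protein and promoter sequences were not analysed here.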

Additional observations from a re-analysis of the deposited data

Results flagged for a closer look

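The age change of 3 members differed between *fog-2(lf)* and wild type by a test of the difference itself. For *gst-27* the age change in *fog-2(lf)* minus that in wild type was 1.86 on the log2 scale (SE 0.42, adjusted p = 0.0303, edgeR), with a fall in both genotypes that was smaller in *fog-2(lf)*. For *gst-35* it was -3.85 (SE 0.72, adjusted p = 0.0181), with a fall in *fog-2(lf)* and a rise in wild type, all 3 libraries of one day lying on the same side of all 3 of the other in each genotype. *gst-35* was the 1 member of 40 with such opposite changes. For *gstk-1* the difference was 1.53 (SE 0.49, adjusted p = 0.0782). The calls of *gst-27* and *gst-35* held under all alternatives that were fitted, and that of *gstk-1* did not.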

How the results depend on the processing

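No called value of a member changed sign under any of the 23 alternatives. Calls held under every alternative in which the member was tested for 24 of 29 members called with age in wild type and 14 of 21 in *fog-2(lf)*. The same was true of 4 of 9 for genotype on the first day, 0 of 4 on the sixth and 2 of 3 for the interaction. Among the 24, *gst-35* was tested in 22 of the 23 alternatives. With library totals only, the members' median age change was -0.66 in *fog-2(lf)* and -0.58 in wild type. On the first day, members called higher in *fog-2(lf)* numbered 7 with library totals and 6 in each of the 3 limma fits, and members called lower numbered 10 with DESeq2, 2 at an adjusted p under 0.05, 3 with isoforms and 2 with only the libraries compared. Over all genes, 2528 were higher with library totals and 1646 to 1816 with limma, against 1125 in the main fit (edgeR with TMM). Lower were 1880 with DESeq2, 894 at 0.05 and 402 with only the libraries compared, against 1540 in the main fit. On the sixth day, members called higher numbered 1 with library totals, in the limma fits and at 0.05, and members called lower numbered 6 in the limma fits, 1 at 0.05, 1 with isoforms and 4 with only the libraries compared. Over all genes, 454 were higher with library totals, 367 to 381 with limma and 841 at 0.05, against 1433 in the main fit. Lower were 3395 to 3595 with limma, 880 at 0.05 and 2532 with only the libraries compared, against 1521 in the main fit. Positive interactions numbered 1 with library totals, 4 with DESeq2 and 1 at 0.05, and negative ones 4 with library totals, 3 without the filter and 6 in the limma fits. Over all genes, positive ones numbered 412 with library totals, 1535 with DESeq2 and 494 at 0.05, against 1073 in the main fit. Negative ones numbered 2779 with library totals, 940 of 21485 genes without the filter and 3267 to 3429 with limma, against 1154 in the main fit. Values of single members that were not called passed in at most 5 alternatives, except for *gst-5* in the interaction (10 of 22) and on the first day (7 of 23), *gst-10* on the first day (9 of 23) and *gst-20* on the sixth (6 of 23). The median of all genes tested moved as well under some scalings. On the sixth day it was -0.17 with library totals and -0.21 with limma on log2(TPM + 0.5), and in the interaction -0.26 and -0.30. The cause of the shifts in member counts was not tested.

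Leaving out 1 library at a time gave 1 to 4 members called higher with age in *fog-2(lf)*, 2 to 11 called lower on the first day, 0 to 4 higher and 0 to 5 lower on the sixth day, and 1 to 5 positive and 1 to 3 negative interactions. Over all genes, 1866 to 3059 were higher with age in *fog-2(lf)* and 685 to 2160 lower on the first day. On the sixth day 529 to 1997 were higher and 573 to 2214 lower. Interactions were positive for 471 to 1766 genes and negative for 547 to 1535. Deviations of same-numbered libraries from their group means had correlations of -0.18 to 0.21, over 0.1 in 3 of 18 pairs. Between libraries of different numbers these were -0.17 to 0.16, over 0.1 in 6 of 36 pairs. The labels do not say whether same-numbered libraries were handled together, and with 3 libraries per group these values cannot settle it. With the replicate number as a block, positive interactions numbered 1 and *gstk-1* lost its interaction (1.45, adjusted p = 0.107) and first-day calls (-1.004, adjusted p = 0.104). Members under 1 CPM rest on few reads, and 9 members were too low to test.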
